A study of Mus musculus with 4 samples.

Results

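The 10 mouse genes *Tpm1*, *Tpm2*, *Tpm3*, *Tpm4*, *Cnn1*, *Cnn2*, *Cnn3*, *Tagln*, *Tagln2* and *Cald1* code for the tropomyosins, calponins, transgelins and caldesmon. They were taken by gene name from a table of 55573 genes, of which 21900 are protein-coding, and each name matched 1 row. To ask which mRNAs need eIF5A for their translation, the study profiled ribosome-protected RNA in primary myoblasts, muscle precursor cells grown from the digested hind-limb muscle of 3-week-old mice and collected on day 2 of proliferation. There were 2 WT libraries and 2 libraries labelled eIF5A knockout (KO). The sample titles name the assay Polysome-Seq, which the study describes apart from its ribosome profiling, whereas the labelled extraction digests with RNase I and purifies ribosome-protected fragments. The values are read here as ribosome-protected signal on the ground of that extraction, and the conflict was not resolved. All cells grew in medium with 10% fetal bovine serum and 10 μg/mL FGF and received 100 μg/mL cycloheximide, which holds ribosomes on the mRNA. According to the study, KO mice were *Pax7* CreERT2/+;*eIF5A* f/f animals given tamoxifen, so the deletion depends on *Pax7* expression and cells of the culture that never expressed *Pax7* keep the gene. Its WT controls are described as littermates, as *Pax7* CreERT2/+ mice and, for another experiment, as *Pax7* +/+;*eIF5A* f/f mice. The study calls its ribosome profiling a duplicate experiment, without saying whether the libraries of a group came from separate mice or cultures, so p-values measure the spread between these libraries, which may be technical.

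All of these proteins act on the actin filament. Tropomyosins are coiled coils that lie along the filament and control which other proteins reach it; in striated muscle they work with troponin, and every other cell type has tropomyosins of its own. *Tpm1* and *Tpm2* are the main genes for striated and smooth muscle forms, while *Tpm3* and *Tpm4* also supply many non-muscle cells, and alternative exons let each gene make several proteins. Calponins and caldesmon bind actin and restrain myosin, with *Cnn1* typical of smooth muscle and *Cnn2* and *Cnn3* more widely used. Transgelin, the product of *Tagln*, is an early smooth muscle marker that cultured mesenchymal cells also make, and *Tagln2* codes for its relative in non-muscle cells. The table gives 1 value per gene, so isoforms could not be separated: *Tpm1* has 21 annotated transcripts for 16 distinct proteins, and *Cald1* has 18 transcripts for 5.

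The tropomyosin sequences show why the genes can be told apart at all. In the stretch of 20 residues in which the 4 proteins are most alike, 19 residues are the same in all of them, whereas 14 of the 60 coding bases differ in at least 1 gene. The sequences are those of the longest coding sequence of each gene in GENCODE M21 (GRCm38), 5′ to 3′, with the differing bases in capitals. Each stretch runs over 2 exons, so its coordinates hold an intron: chr9:67033993-67036053 (minus strand) for *Tpm1*, chr4:43519506-43519669 (minus) for *Tpm2*, chr3:90086521-90087455 (plus) for *Tpm3* and chr8:72138663-72143450 (plus) for *Tpm4*.
Tpm1: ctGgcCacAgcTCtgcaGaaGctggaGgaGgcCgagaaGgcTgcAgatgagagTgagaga
Tpm2: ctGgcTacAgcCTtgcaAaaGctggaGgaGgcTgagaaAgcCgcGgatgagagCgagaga
Tpm3: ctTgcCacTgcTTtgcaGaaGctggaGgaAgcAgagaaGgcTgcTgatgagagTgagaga
Tpm4: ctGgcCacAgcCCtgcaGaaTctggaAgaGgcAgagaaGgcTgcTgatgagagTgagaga

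Within this stretch, pairs of genes differed at 5 (*Tpm1* and *Tpm4*) to 11 bases (*Tpm2* and *Tpm3*). Over whole proteins, identity ran from 67.8% (*Tpm2* and *Tpm4*) to 82.4% (*Tpm1* and *Tpm3*). In windows of 28 bases, about the length of a ribosome footprint, the tropomyosin genes shared little with each other: 8 of 954 coding windows of *Tpm1* also occurred in *Tpm2*, and 5 of 831 windows of *Tpm3* in *Tpm4*. Copies elsewhere in the genome were another matter. For *Tpm3*, 70.8% of coding windows occurred in transcripts of other annotated genes, 588 of them in *Tpm3-rs7*, a near-identical copy that also holds the *Tpm3* line printed above. The shares were 62.6% for *Tpm4*, 60.6% for *Cnn3* and 4.60% for *Cnn2*, mostly through processed pseudogenes, against 87.2% for *Tagln*, all in its antisense partner described further on, 1.57% for *Tpm2*, 0.839% for *Tpm1* and 0% for *Cnn1*, *Tagln2* and *Cald1*. *Tpm3-rs7* was listed at 0 in all 4 libraries, and the pseudogenes *Gm7809* of *Tpm4* and *Gm4815* and *Gm17936* of *Cnn3* were too. How reads with several matches were handled is not given in the sources used here, and the levels of *Tpm3*, *Tpm4* and *Cnn3* are therefore uncertain.

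The libraries were shallow. The deposited RPKM values (reads per kilobase of gene scaled by a library size) resolved into whole reads, 642429 to 704006 per library, of which 217651 to 460099 lay on protein-coding genes. That protein-coding share separated the groups, at 41.5% and 33.9% of reads in WT against 65.4% and 59.2% in KO. The 10 genes together held 686 and 718 reads in WT libraries 1 and 2, and 1426 and 1247 reads in KO libraries 1 and 2. That was 0.255% and 0.330% of the protein-coding reads in WT (95% Wilson intervals 0.237 to 0.275 and 0.307 to 0.355) and 0.310% and 0.324% in the libraries labelled KO (0.294 to 0.326 and 0.306 to 0.342). The shares of the groups overlapped, WT library 1 being the lowest. *Eif5a* itself had 34.9 and 65.2 RPKM in WT against 60.3 and 59.4 RPKM, so no loss was seen under the KO label (limma log2 fold change 0.32 with standard error 0.48, adjusted p = 0.839), and every direction below is that of the libraries labelled KO. As for the labelled cell type, *Myod1* was read at 140 and 117 RPKM in WT against 48.6 and 79.8 RPKM, while *Pax7* lay between 0.941 and 8.49 RPKM and *Myf5* was at 0 in KO library 2. Of 7 myoblast markers, all 7 had a lower mean in those libraries, with summed signal of 316 and 188 RPKM in WT against 68.7 and 112 RPKM. *Myog* alone gave 91.0 and 4.26 RPKM in WT against 0.737 and 1.66 RPKM, with 82 reads in WT library 1 and 3 in WT library 2. Of 7 fibroblast markers, 5 were higher, with sums of 458 and 267 RPKM against 763 and 338 RPKM, of which *Dcn* alone gave 240 and 126 RPKM against 459.9 and 171 RPKM. Endothelial markers were higher for 5 of 5 (106 and 99.8 against 139 and 112 RPKM), and immune markers lower for 3 of 5 (28.1 and 38.5 against 23.9 and 24.6 RPKM), with *Itgam* at 0. Of 8 smooth muscle and pericyte markers, *Cnn1* among them, 3 were higher and 5 lower, with sums of 73.9 and 64.7 RPKM against 69.3 and 52.2 RPKM. Fewer cells of a type and less signal per cell cannot be told apart in such bulk samples, and the part of these markers in the values below was not tested.

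*Tagln2* (ENSMUSG00000026547; chromosome 1, 172500047 to 172507380, plus strand) carried by far the strongest signal of the 10 genes. WT gave 119 and 206 RPKM, from 149 and 202 reads, while KO gave 222 and 244 RPKM, from 419 and 411 reads. Its lowest library was above the highest value of any other member. *Tpm4* (ENSMUSG00000031799; chromosome 8, 72134975 to 72153142 in GENCODE M21, plus strand) was next, with 41.2 and 51.2 RPKM in WT and 56.3 and 42.1 RPKM in KO. *Tpm1* (ENSMUSG00000032366; chromosome 9, 67022590 to 67049406, minus strand) had 26.9 and 46.5 RPKM in WT and 41.7 and 49.4 RPKM in KO. The ranges of *Tpm4* and *Tpm1* overlapped, *Tpm4* being higher in 3 of 4 libraries. In both *Tpm1* and *Tagln2*, WT library 1 was the lowest of the 4.

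*Cald1* (ENSMUSG00000029761; chromosome 6, 34598500 to 34775473, plus strand), for caldesmon, was read at 23.1 and 25.0 RPKM in WT and at 30.9 and 24.4 RPKM in KO. *Cnn3* (ENSMUSG00000053931; chromosome 3, 121426497 to 121458207, plus strand), for the acidic calponin, had 24.0 and 24.5 RPKM in WT and 18.2 and 24.9 RPKM in KO. These neighbours were not separated, each being the higher in 2 of 4 libraries. *Cnn2* (ENSMUSG00000004665; chromosome 10, 79988584 to 79996062, plus strand), the calponin of many non-muscle cells, had 16.9 and 21.6 RPKM in WT and 11.2 and 17.6 RPKM in KO. It was below *Cnn3* in 4 of 4 libraries.

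*Tpm3* (ENSMUSG00000027940; chromosome 3, 90072649 to 90100902, plus strand) had 16.9 and 17.8 RPKM in WT and 17.0 and 12.2 RPKM in KO. *Tpm2* (ENSMUSG00000028464; chromosome 4, 43514711 to 43523765, minus strand), which in adult muscle is a major sarcomeric tropomyosin gene, was the lowest of its family by mean, with 15.4 and 13.1 RPKM in WT and 14.0 and 15.3 RPKM in KO. It rested on 18 to 37 reads per library, and its values moved the least of the family. From *Cnn2* to *Tpm2* the ranges all overlapped, so no order among these 3 genes is given. The plot of signal by library shows *Tagln2* alone at the top, 7 genes between 11.2 and 56.3 RPKM, and *Cnn1* and *Tagln* at or near 0.

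**Figure D1:**
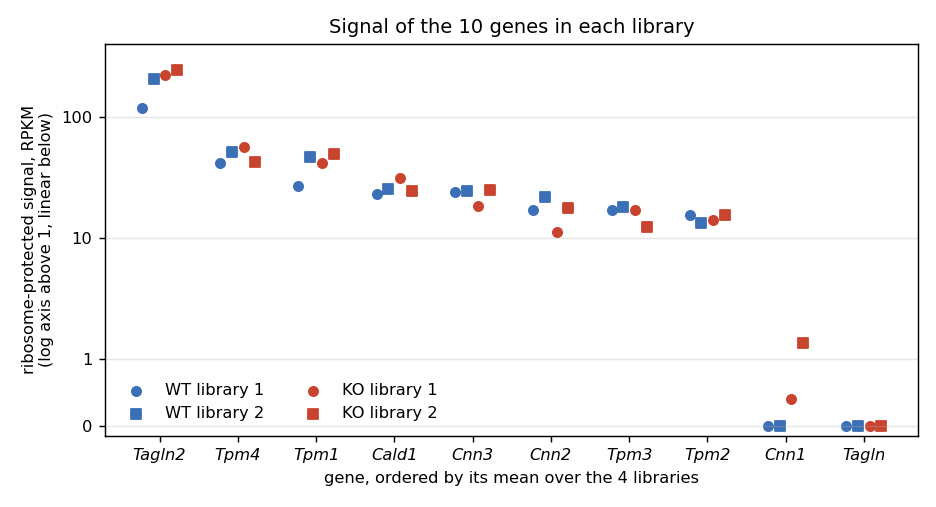
Ribosome-protected signal (RPKM, log axis above 1 and linear below) of each of the 10 genes, with WT libraries in blue, libraries labelled KO in red, library 1 as circles and library 2 as squares. *Tagln2* lies between 119 and 244 RPKM, *Cnn1* reaches 1.36 RPKM and *Tagln* is listed at 0 in all 4 libraries.

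RPKM divides by all exon bases, although ribosome footprints lie mainly on the coding part, and these genes differ in how much of their length is coding. *Cald1* has 2307 coding bases of 12041, and *Tagln2* has 600 of 2082. Per kilobase of the longest coding sequence, a scale chosen after the values were seen, *Tagln2* still led with 563 ± 214 reads per coding kilobase on the authors' library scale (SD, n = 2) in WT. *Tpm4* with 264 ± 40.5 and *Tpm1* with 242 ± 91.7 (SD, n = 2) followed and did not differ beyond their spread. *Tpm3* went from rank 7 to rank 5 by its mean over all libraries, with 123 ± 4.46 (SD, n = 2), beside *Cald1* with 126 ± 6.97 (SD, n = 2), in WT. In KO the same genes had 104 ± 24.2 and 144 ± 23.9 (SD, n = 2), *Tpm3* being lower in 4 of 4 libraries. *Tpm2* and *Cnn2* stood lowest of the 8 genes above 1 RPKM, at 48.5 ± 5.44 and 51.5 ± 8.93 (SD, n = 2) in WT. For *Tpm4* this scale is approximate, since its start in the table lies upstream of the start in GENCODE M21 and the table gives it 4269 exon bases against 2203 there.

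*Cnn1* (ENSMUSG00000001349; chromosome 9, 22099216 to 22109630, plus strand), the smooth muscle calponin, had 0 reads in both WT libraries and 1 and 3 reads in KO libraries 1 and 2, or 0.40 and 1.36 RPKM. A count of 0 allows up to 3 reads, which is 1.21 to 2.33 RPKM for this gene depending on the library, so both groups were at or under this floor and no fold is given. This floor and the intervals above cover counting error alone, because PCR copies of 1 fragment are not separate molecules. No exon of another annotated gene overlaps *Cnn1*, and no coding window of it occurs elsewhere. *Cnn1* thus stood far below its relatives *Cnn2* and *Cnn3* in these cells, with 4 reads in all against 110 and 190.

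*Tagln* (ENSMUSG00000032085; chromosome 9, 45929619 to 45936058, minus strand) was listed at 0 in all 4 libraries. Its coding sequence starts as follows (chr9:45931702-45931761, minus strand, start codon in capitals) and is shown because the annotation holds these bases on the other strand too.
Tagln: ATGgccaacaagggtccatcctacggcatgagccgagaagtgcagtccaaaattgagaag

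The antisense gene *Gm48529* shares 1241 exonic bases with *Tagln*, among them every one of its 603 coding bases before the stop codon, and *Gm48529* was listed at 0 in all 4 libraries as well. A further 108 exonic bases outside the coding sequence are shared with *Pcsk7*. In all, 67.9% of the exonic bases of *Tagln* lie under exons of other genes. Other genes with such cover were looked up after the value of *Tagln* was seen. Full cover is rare, and the genes that have it were weakly read in this table. Among protein-coding genes free of same-strand overlap, 57 have a coding sequence that lies wholly under antisense exons. Of these, 42 (73.7%) were listed at 0 in all 4 libraries, against 6070 of 18023 genes (33.7%) without antisense cover and 468 of 2373 (19.7%) with partial cover. *Tagln*, which prompted the count, is 1 of the 42, and without it 41 of 56 genes (73.2%) were at 0. The highest of the 57 was *Fen1*, a DNA replication nuclease, at a mean of 1.31 RPKM, and *Ilk*, the widely expressed integrin-linked kinase, had 0.345 RPKM. Both were picked after their values were seen. The classes of cover were not matched for gene type or expression, so these counts cannot separate cover from expression. The share at 0 was lowest with partial cover, not with none. How reads over 2 genes were counted is not given in the sources used here. The part of the antisense gene in the value of *Tagln* was not tested. The 0 is therefore reported as a listing, not as a level of transgelin translation.

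**Figure D2:**
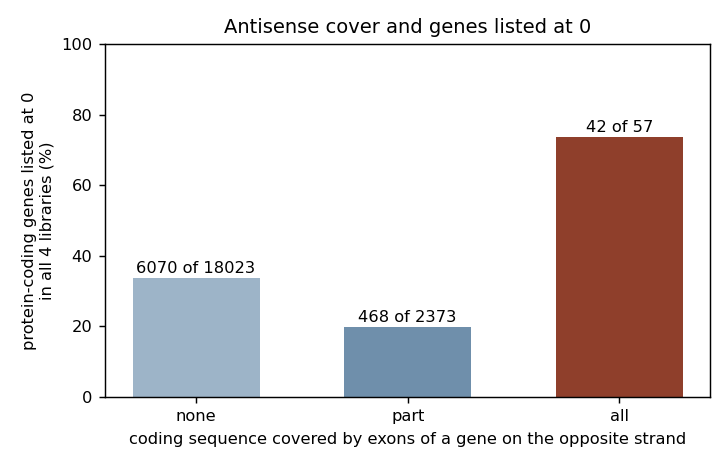
Percentage of protein-coding genes listed at 0 in all 4 libraries (vertical axis), by whether none, part or all of the coding sequence lies under exons of a gene on the opposite strand. The bar for full cover, the class of *Tagln*, reaches 73.7% (42 of 57 genes, *Tagln* included), against 33.7% and 19.7%.

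Partial cover touched 2 other members. In *Cnn3*, 538 exonic bases, 57 of them coding, lie under *Gm42928*. In *Tpm4*, 134 exonic bases, all of them coding, lie under the antisense gene *Gm26586*, which had 0 to 3 reads per library. The other 7 members have no exonic overlap in this annotation.

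The groups were then compared. None of the 8 members whose mean reached 1 RPKM passed an adjusted p-value of 0.05 by limma on log2(RPKM + 1), 0 in either direction, and 0 had an unadjusted p-value under 0.05. *Cnn1* and *Tagln* did not reach the minimum and were not tested. Over all 11363 tested genes, 0.106% were called, 0.0968% lower and 0.0088% higher. For unadjusted p-values under 0.05 the share was 7.32%, with 4.46% lower and 2.86% higher, so 0 of 8 was near the background. The median log2 fold change of the 8 genes was 0.061, beside 0.00026 over all tested genes. Of the 8, 3 were below 0 and 5 above.

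*Tagln2* had the highest value, averaging 162 ± 61.7 RPKM across WT and 233 ± 15.9 RPKM across KO libraries (SD, n = 2). For it limma gave a log2 fold change of 0.57, standard error 0.52, with a 95% confidence interval from -0.71 to 1.86 and an adjusted p of 0.732. Of the 8 tested members it alone had groups that did not overlap, where 40.4% of all tested genes did not overlap, 20.1% with KO higher and 20.3% with KO lower. WT library 1 set much of the difference: the log2 fold change was 0.18 without it and 0.97 without WT library 2. The 3 protein-coding genes whose pattern over the 4 libraries came nearest to that of *Tagln2* were *Lamp1*, *Glud1* and *Cd63*. Their centred log2 values had a root mean squared difference from it of 0.030 to 0.043, the smallest among 1158 genes at or above a mean of 20 RPKM.

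Among the tropomyosins, *Tpm1* averaged 36.7 ± 13.9 RPKM across WT and 45.6 ± 5.51 RPKM across KO libraries (SD, n = 2), for which limma gave 0.35 ± 0.46 on the log2 scale (standard error; adjusted p = 0.813). Without WT library 1 it was -0.033. *Tpm4* had 46.2 ± 7.09 against 49.2 ± 10.1 RPKM (SD, n = 2), with a log2 fold change of 0.082 and a confidence interval from -0.98 to 1.14. *Tpm2* had 14.3 ± 1.60 against 14.7 ± 0.918 RPKM (SD, n = 2), with a log2 fold change of 0.041 (interval -0.88 to 0.96). *Tpm3* was the single tropomyosin with a value below 0, at 17.3 ± 0.628 RPKM in WT and 14.6 ± 3.41 RPKM in KO (SD, n = 2; log2 fold change -0.25, interval -1.22 to 0.72). All 4 intervals span 0, and each reaches at least as far as -0.79 on one side and 0.72 on the other.

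The actin-binding inhibitors of myosin gave values on both sides of 0. *Cnn2* had 19.2 ± 3.33 RPKM in WT and 14.4 ± 4.53 RPKM in KO (SD, n = 2), the lowest log2 fold change of the set at -0.41 ± 0.42 (standard error; adjusted p = 0.754 by limma). Without KO library 1 it was -0.11, above *Tpm3* at -0.47, and without KO library 2 it was -0.72. *Cnn3* had 24.2 ± 0.304 against 21.5 ± 4.75 RPKM (SD, n = 2), at -0.18 (interval -1.17 to 0.81). *Cald1* had 24.1 ± 1.33 against 27.6 ± 4.59 RPKM (SD, n = 2), at 0.18 (interval -0.80 to 1.16). KO library 1 was both the lowest for *Cnn2* and *Cnn3* and the highest for *Cald1* and *Tpm4*, so the spread within the KO group was not shared in direction by these genes.

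**Figure D3:**
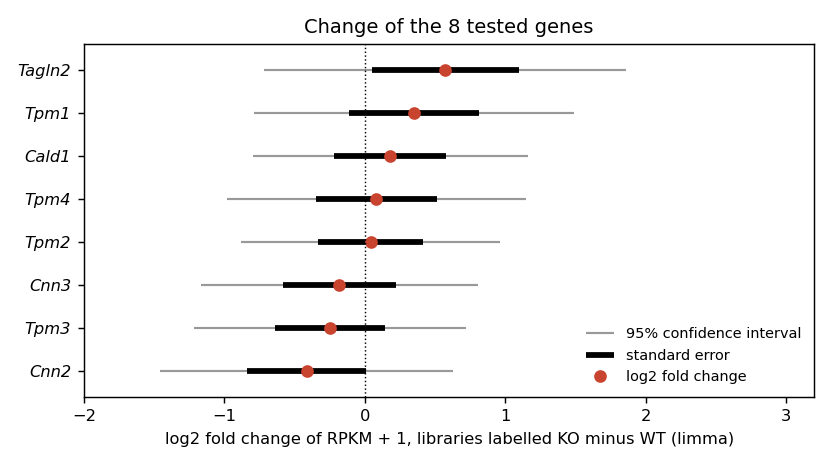
Log2 fold change of RPKM + 1 (libraries labelled KO minus WT, limma) for the 8 tested genes, with thick bars for the standard error and thin bars for the 95% confidence interval. All 8 intervals cross 0, from *Cnn2* at -0.41 to *Tagln2* at 0.57.

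Several of these directions depended on library scaling. The library sizes behind the authors' RPKM ran from 471136 to 906990, wider apart than the recovered read totals, and the protein-coding share of reads given above moved with the label. The part of that share in the fold changes was not tested beyond the scalings that follow. With libraries scaled to the same total of reads, the median of all genes moved to 0.47 and all 8 members lay above 0, with *Tagln2* at 1.18 (unadjusted p = 0.0378, adjusted p = 0.289 by limma). *Tpm3*, *Cnn2* and *Cnn3* changed sign under that scaling, and relative to the median of all genes the members' median was 0.18. Scaled to the same total over protein-coding genes, 5 members lay below 0 and their median was -0.049. Quantile normalization put *Tagln2* at 1.01 (unadjusted p = 0.0662, adjusted p = 0.671 by limma).

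**Figure D4:**
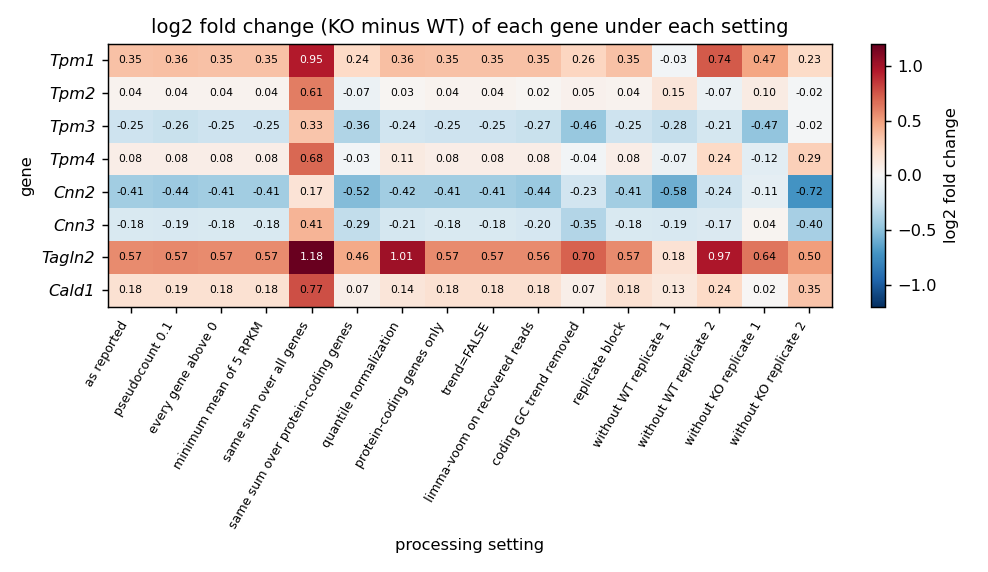
Log2 fold change (KO minus WT) of each of the 8 tested genes (rows) under the reported fit and 15 alternatives (columns), printed in each cell and coloured from blue (lower) to red (higher). *Tagln2* is above 0 in every column, from 0.18 without WT replicate 1 to 1.18 with the same total over all genes, whereas *Tpm2* and *Tpm4* move to either side of 0.

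Ratios between genes inside a library do not depend on such scaling. Of the summed tropomyosin signal, *Tpm4* took 40.4% ± 0.869 (SD, n = 2) in WT and 39.5% ± 5.88 (SD, n = 2) in KO. *Tpm1* took 31.5% ± 6.63 and 36.9% ± 6.54, *Tpm3* 15.3% ± 2.13 and 11.7% ± 2.08, and *Tpm2* 12.8% ± 3.63 and 11.9% ± 1.42 (SD, n = 2). The *Tpm3* share was 16.8% and 13.8% in WT against 13.2% and 10.3% in KO, so its groups did not overlap, by a narrow margin, while those of the other 3 shares did. With 40.4% of single genes not overlapping between the groups, 1 of 4 shares apart is no result about *Tpm3*, whose level is uncertain besides. The log2 ratio of *Tpm1* plus *Tpm2* to *Tpm3* plus *Tpm4* was -0.46 and -0.21 in WT and -0.40 and 0.26 in KO, a difference of 0.26 in which the groups overlapped (exact two-sided permutation test, p = 0.667, where 2 against 2 libraries cannot go below 0.333). Within the calponins, *Cnn3* took 56.0% ± 3.98 and 58.9% ± 3.02 (SD, n = 2) of the signal, with overlapping groups. The *Cnn2* share was 41.2% and 46.9% in WT against 37.7% and 40.2% in KO, which did not overlap. The rest was the 4 reads of *Cnn1*, and the separation rested on them. Without *Cnn1*, the log2 ratio of *Cnn2* to *Cnn3* overlapped, at -0.51 and -0.18 in WT and -0.70 and -0.50 in KO. With 40.4% of single genes not overlapping, the *Cnn2* share is no result about *Cnn2*.

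**Figure D5:**
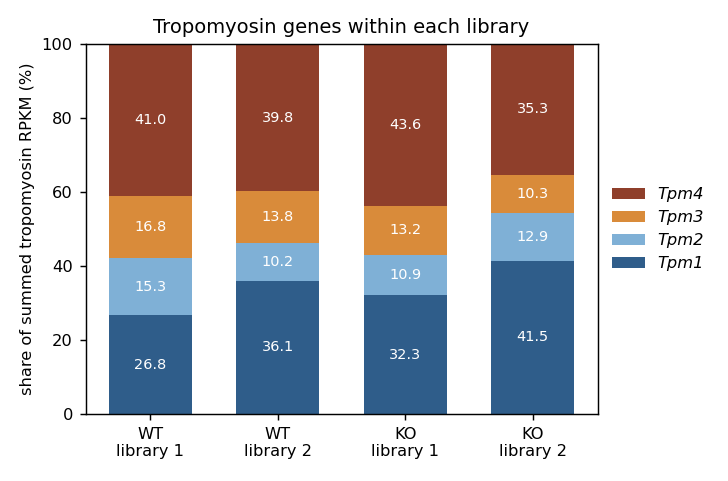
Share of the summed tropomyosin RPKM (%) taken by each of the 4 genes in each library, printed inside the bars. The *Tpm4* share runs from 35.3% to 43.6%, and the *Tpm3* share from 10.3% to 16.8%.

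All 28 ratios between 2 tested members were then formed, a step added after the values were seen. The groups did not overlap in 10 of the 28. Of the ratios between any 2 protein-coding genes with at least 100 reads, 42.2% did not overlap, so the members' ratios were apart no more often than those of other genes. The largest such difference was between *Tagln2* and *Cnn2*, where the log2 ratio was 2.82 and 3.26 in WT and 4.31 and 3.79 in KO, a difference of 1.02 (exact two-sided permutation test, p = 0.333, the smallest possible here). *Tagln2* to *Tpm1*, 1 of those 10 ratios, was nearly the same within each group, at 2.14 and 2.15 in WT and 2.41 and 2.31 in KO. Its difference was 0.21 (exact two-sided permutation test, p = 0.333, again the smallest possible), so this is no result about the pair.

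The proteins were examined for proline, because eIF5A is known for helping ribosomes past consecutive prolines. The longest annotated protein of each of the 4 tropomyosin genes, between 248 and 326 residues, holds 0 prolines, as is usual for a long coiled coil. Of 21408 protein-coding genes with a complete coding sequence, 64 (0.299%) have none. The other 6 members have 3.39% (*Cald1*) to 4.98% (*Tagln*) proline, all below the median of 5.27% over those genes. No member has 3 or more prolines in a row, as 20.1% of the genes do. Consecutive prolines occur once each in *Cnn2* (stretch of residues 194 to 205, chr10:79993500-79993535, plus strand) and *Tagln* (residues 78 to 89, chr9:45931391-45931426, minus strand), shown here with the codons of the consecutive prolines in capitals. The *Tagln* line holds another, single proline codon (cct) in lower case.
Cnn2: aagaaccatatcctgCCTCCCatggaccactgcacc
Tagln: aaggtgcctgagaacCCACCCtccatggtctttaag

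The 4 proline-free tropomyosins had log2 fold changes from -0.25 to 0.35. The median over all 18 tested genes without proline was -0.068, and -0.30 over the 14 of them that are not members, a group formed after the values were seen. It was -0.13 over 2537 tested genes with a run of 3 or more prolines and 0.049 over all 9840 tested protein-coding genes with a coding sequence. These classes were not compared by a test, and the part of proline in any member's value was not tested. With the trend on the GC content of the coding sequence removed, which ran from 49.0% (*Tpm3*) to 57.7% (*Cnn2*) among the members, *Cnn2* moved to -0.23 and *Tpm3* to -0.46.

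The filament systems around these genes were compared from 3 lists. Of 18 smooth muscle genes and genes of the SRF pathway, which switches on many smooth muscle genes, 14 were tested, of which 7 lay below and 7 above 0, the median being 0.040 on the log2 scale. None passed, 0 at the adjusted and 0 at the unadjusted threshold. The lowest with at least 20 reads were *Srf*, the transcription factor itself, at 20.1 ± 2.44 RPKM in WT and 8.80 ± 8.13 RPKM in KO (SD, n = 2; log2 fold change -1.40, adjusted p = 0.676 by limma), and *Acta2*, smooth muscle actin, at 85.8 ± 17.5 against 56.9 ± 14.4 RPKM (SD, n = 2; -0.59). The highest were *Vcl* (0.63) and *Flna* (0.53), which tie actin to adhesions and to itself. *Acta2*, unlike *Cnn1*, was thus well covered in all 4 libraries.

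Of the partners of tropomyosin on the thin filament (troponins, tropomodulins and leiomodins), 7 of 15 were tested, with a median of -0.17 and 0 calls, and *Tmod4*, *Tnnc2* and *Tnni3* were listed at 0. *Tmod3*, which caps filaments in non-muscle cells, had 10.9 ± 1.88 RPKM in WT and 13.2 ± 3.50 RPKM in KO (SD, n = 2; log2 fold change 0.25). *Tmod1*, the tropomodulin of striated muscle, had 1.26 and 0.54 RPKM in WT against 4.75 and 0.94 RPKM in KO (24 reads, log2 fold change 0.84), so the groups overlapped and KO library 1 set the value. *Tnnt1*, slow troponin T, had 28 reads, mostly from WT library 1 at 12.0 RPKM against 1.93 to 2.81 RPKM elsewhere. *Tnnt3*, fast troponin T, stood at -1.56 on 9 reads and is named because limma gave it an unadjusted p of 0.0181 (adjusted p = 0.660).

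All 20 general actin regulators were tested. Of these, 17 were above 0 and 3 below, with a median of 0.32, beside 0.00026 over all tested genes. None passed the adjusted threshold. *Cfl2*, the muscle cofilin that severs filaments, had 5.59 and 5.20 RPKM in WT against 13.5 and 12.5 RPKM in KO. Its log2 fold change was 1.13 ± 0.36 (standard error), and limma gave it the lowest unadjusted p of the list, 0.0203 (adjusted p = 0.660). With 7.32% of all tested genes under 0.05 unadjusted, 1 such gene of 20 is near the background. *Dstn*, a related severing factor, had 32.1 and 32.2 against 51.9 and 51.2 RPKM (0.66, adjusted p = 0.697 by limma). At the other end stood *Lasp1*, an adhesion adaptor, with 13.5 and 17.3 against 11.0 and 8.20 RPKM (-0.63), and *Fscn1*, which bundles filaments, with 71.0 and 131 against 76.1 and 88.4 RPKM (-0.23).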

How the data were processed

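Per the study, low-quality, rRNA and tRNA reads were removed, the rest mapped with Tophat2 to an Ensembl annotation and counted per gene with HTSeq (build mm10 in the submitters' processing notes); the sources used here give no rule for strand, multiple matches or overlapping genes. The authors deposited RPKM values per library and gene, with gene lengths. RPKM times length gave whole multiples of 1 step for 100% of values above 0 (within 0.001 reads), so reads were recovered. Groups came from sample titles. Of the table's identifiers, 99.7% were in GENCODE M21 (GRCm38), 99.7% of them at the same coordinates.

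limma 3.58.1 in R 4.3.3 (trend=TRUE) was fitted to log2(RPKM + 1) over all 11363 genes whose mean reached 1 RPKM, with Benjamini-Hochberg adjustment. Fold changes on this scale understate those of weakly read genes. The script was tested on simulated data with a fixed spread that was not taken from these libraries. That check says nothing about how well changes are detected here. Members and lists were chosen with earlier results of these data known. All 10 members are named, and from each other list the 2 lowest and 2 highest by log2 fold change with at least 20 reads. Alternatives covered pseudocount, filters, scaling, GC, limma-voom on recovered reads, a replicate block and leaving out each library. The log2 ratios of *Tagln* to *Tagln2* and of *Cnn1* to *Cnn2* plus *Cnn3* were planned and could not be formed, a side being at 0.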

Additional observations from a re-analysis of the deposited data

How the results depend on the processing

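With 110 to 1181 reads per tested member over the 4 libraries and 2 libraries per group, the confidence intervals of the members are wide, and no member passed the adjusted threshold under any of the 15 alternatives (smallest adjusted p = 0.289 by limma). The fits that leave out a library assume that the lone library varies like the other group. Over all genes, 11 genes were called with KO lower and 1 with KO higher. Both counts stayed the same with quantile normalization and with the same total over protein-coding genes. They became 0 when 0.1 was the pseudocount, and when all genes above 0 or just those from a mean of 5 RPKM up were kept. They also became 0 with the same total over all genes, with protein-coding genes only, trend=FALSE, the GC trend removed and the replicate block. With limma-voom, 39 were called lower and 0 higher. In the settings named with 0 calls, unadjusted limma p-values under 0.05 numbered 170 to 533 genes below and 178 to 1684 above 0. The cause was not tested. The members' median of 0.061 was 0.65 with the same total over all genes, -0.049 over protein-coding genes and 0.0056 with the GC trend removed, and ran from -0.053 to 0.106 with a library left out. Signs reversed for *Tpm3* (0.33), *Cnn2* (0.17) and *Cnn3* (0.41) with the same total over all genes, for *Tpm2* (-0.067) and *Tpm4* (-0.031) with that over protein-coding genes, and for *Tpm4* (-0.036) with the GC trend removed. With a library left out, *Tpm1* ran from -0.033 to 0.74, *Tpm2* from -0.066 to 0.15, *Tpm4* from -0.12 to 0.29, *Cnn3* from -0.40 to 0.035, *Tpm3* from -0.47 to -0.024, *Cnn2* from -0.72 to -0.11, *Cald1* from 0.017 to 0.35, *Tagln2* from 0.18 to 0.97 and the difference in the tropomyosin log2 ratio from -0.062 to 0.59. Libraries share only a replicate number, the deviations of same-numbered libraries correlating at 0.0575, and the replicate block changed no call among the members (*Tagln2* adjusted p = 0.756 by limma; tropomyosin ratio 0.26).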

Other observations

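Proline-free proteins other than the tropomyosins were read in the same libraries. Of the 18 tested genes without proline, 14 are not members, and their median log2 fold change was -0.30, against -0.068 with the tropomyosins included. They ran from *Rpl37a*, a ribosomal protein gene, at -1.32 to *Atp5e*, a small subunit of the ATP synthase, at 1.26, and 0 passed the adjusted threshold by limma. This group was formed after the values were seen.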
